A study of Oryza sativa with 10 samples.

Results

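The genes described here are the rice loci whose deposited description matched words tied to jasmonate synthesis or signalling. A locus was taken as a member when at least 1 of its transcripts was described with the words lipoxygenase, allene oxide, 12-oxophytodienoate, ZIM or jasmon, or with the letters tify. By this rule 58 of the 37869 loci in the expression table were members, through 66 matching transcripts. The members fell into 14 loci described as lipoxygenases, 4 with only a lipoxygenase LH2 domain, 6 for allene oxide enzymes, 1 for 12-oxophytodienoate reductase, 17 with a Tify domain or ZIM motif and 10 with jasmonate in their description. The other 6 are potassium channels, which matched only because the word rectifying holds the letters tify. They were kept as members and were put in a class of their own after the descriptions had been read. They are given apart from the other members.

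RNA-Seq was carried out on roots of Oryza sativa cultivar Illmi at an age of 20 days, with 2 libraries for each of 5 groups. Of these, 4 groups were transgenic plants labelled RCc3:myc-OsNAC5, RCc3:OsNAC6-myc, RCc3:myc-OsNAC9 and RCc3:OsNAC10-myc, in which a NAC transcription factor joined to a MYC epitope tag is expressed from RCc3, a promoter active in roots. They are called OsNAC5, OsNAC6, OsNAC9 and OsNAC10 roots here. The fifth group, NT, was the non-transgenic cultivar. By the study's methods all plants grew in soil in a greenhouse and were kept under water for some days before the roots were cut, transgenic lines were picked for the most tagged protein, and the replicates were biological. The number of independent transformants sampled per group was not stated, so the NAC gene and the insertion event cannot be told apart. By the labels the tag stands before the NAC protein in OsNAC5 and OsNAC9 and after it in OsNAC6 and OsNAC10. The place of the tag therefore cannot be told apart from the NAC gene either. No treatment with jasmonate, wounding or drought is named for these samples.

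Jasmonates are lipid hormones that plants make after wounding, attack and some abiotic stresses. In the plastid a lipoxygenase oxidises linolenic acid, allene oxide synthase and allene oxide cyclase turn the product into 12-oxophytodienoic acid, and in the peroxisome a reductase and rounds of beta-oxidation give jasmonic acid, which a GH3 family enzyme joins to isoleucine. Other lipoxygenases of a plant feed other oxylipins. The conjugate is bound by the F-box protein COI1 together with JAZ repressors, which carry the TIFY (ZIM) motif. The repressors are then degraded and release MYC-type bHLH factors, and in rice and Arabidopsis many synthesis and JAZ genes are themselves induced by jasmonate.

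Values are FPKM, fragments scaled to transcript length and to the mapped fragments of the library, summed over the transcripts of a locus. Differences are on the log2(FPKM + 1) scale, which understates the change of loci near or under 1 FPKM. A locus was called when limma gave a Benjamini-Hochberg adjusted p under 0.05 over the 29915 loci above 0 in all libraries, and its change had to reach 1.5 fold. The deposited values hold no counts. Depth relative to NT replicate 1, read from the lowest values, was 0.933 to 1.52 in the line libraries and 1.57 in NT replicate 2. Log2 differences between the replicates of a group were taken at loci with a mean of at least 1 FPKM. Their scaled median absolute deviation was 0.157 in OsNAC5 roots, 0.321 in OsNAC6 roots, 0.194 in OsNAC9 roots, 0.155 in OsNAC10 and 0.108 in NT. Each overexpressed gene was highest in its own group. On the log2 scale OsNAC5 (Os11g0184900) was 1.69 and OsNAC9 (Os03g0815100) 3.24 above NT, while OsNAC6 (Os01g0884300) was 0.38 and OsNAC10 (Os11g0126900) 0.35 above NT, short of 1.5 fold. The summed level of 5 root markers was 2764 to 4012 FPKM in the line libraries and 3316 to 3332 FPKM in NT. Most of this sum was RCc3 (Os02g0662000), whose promoter drives the constructs, at 1660 to 2667 FPKM over all libraries. The sum of 5 leaf markers was 7.10 to 10.4 FPKM in the line libraries and 8.44 to 9.93 FPKM in NT. Of the root markers, the Na+/K+ symport locus Os06g0701700 was called lower in all lines (-0.95 in OsNAC5 roots to -1.55 in OsNAC6 roots, log2), and Os02g0595900, similar to a nitrate transporter, in OsNAC6 (-1.01). Of the leaf markers, the chlorophyll a-b binding locus Os01g0600900 was called lower in OsNAC6 (-0.83) and OsNAC10 (-0.79), and the Rubisco small subunit locus Os12g0291100 higher in OsNAC9 (1.01). The part of these markers in the jasmonate results was not tested. Whether the share of any cell type within the root moved with the line was not tested, and in bulk roots fewer cells of a type and less RNA per cell cannot be told apart.

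Where members were called against NT, they were lower in the transgenic roots with 1 exception, an LH2 domain locus. Of the 45 members tested, 22 were called lower in OsNAC10 roots (9.86% of all loci), 18 in OsNAC6 roots (7.07% of all loci), 13 in OsNAC9 roots (4.91% of all loci) and 12 in OsNAC5 roots (2.78% of all loci). Called higher were 1 member in OsNAC10 roots (4.61% of all loci) and 1 in OsNAC6 roots (5.32% of all loci). No member was called higher by limma in OsNAC9 roots, where 4.43% of all loci were, or in OsNAC5 roots, where 1.78% were. At an unadjusted p under 0.05, with no limit on the fold, 5 members were higher in OsNAC9 roots and 0 in OsNAC5 roots. The share of all loci at that threshold was not computed, nor was it for the unadjusted counts given below. The 4 comparisons share the NT libraries, so their counts are not independent of each other. In OsNAC5 roots some calls were lost without either OsNAC5 library or either NT library, fits that leave 1 library in a group. Os10g0391400 was gained without OsNAC5 replicate 2, and Os03g0180800 without NT replicate 1. Some OsNAC5 calls were also lost with no filter on zeros. The share of all loci called in those fits was not computed.

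The mean of the 4 lines, tested once against NT, was lower for 17 members (5.34% of all loci) and higher for 1 (3.04% of all loci). The higher call was lost with quantile normalization and when either NT library was left out. The median log2 change of the 45 members was -0.20 in OsNAC5 roots, -0.41 in OsNAC6 roots, -0.35 in OsNAC9 roots and -0.44 in OsNAC10 roots, while the median of all loci tested was 0.02 in OsNAC5 roots, 0.01 in OsNAC6 roots, 0.02 in OsNAC9 roots and 0.02 in OsNAC10 roots. For 22 members (48.9%) all 8 line libraries lay below both NT libraries, as was so for 14.6% of all loci. For 3 members all 8 lay above both, against 14.5% of all loci. By class, the 22 were 11 of 15 Tify loci, 4 of 10 lipoxygenases, 4 of 6 allene oxide loci, the reductase, 1 of 3 LH2 domain loci and 1 of 5 loci with jasmonate in their description.

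**Figure D1:**
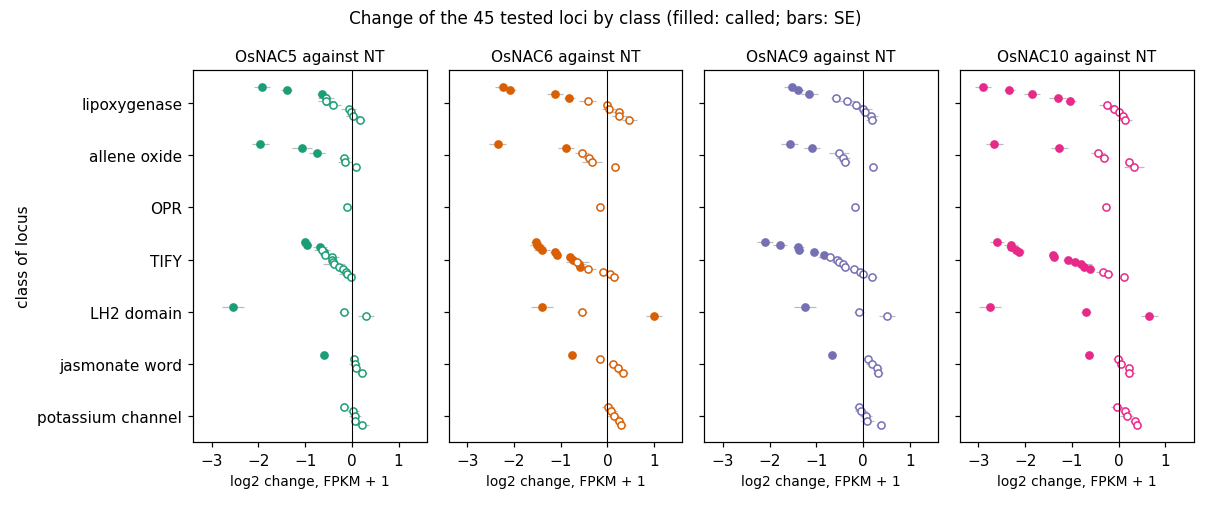
Log2 change against NT, on the log2(FPKM + 1) scale, of each of the 45 tested members in OsNAC5, OsNAC6, OsNAC9 and OsNAC10 roots, by class; filled points were called, open points were not, and bars are the limma SE. Points far to the left are allene oxide synthase, lipoxygenase, Tify and LH2 domain loci, and the potassium channel loci lie near 0.

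The lipoxygenase class, whose plastid enzymes open jasmonate synthesis, held 10 tested loci. Of these 3 were called lower in OsNAC5 roots (2.78% of all loci), 4 in OsNAC6 roots (7.07%), 3 in OsNAC9 roots (4.91%) and 5 in OsNAC10 roots (9.86%). The class median was -0.48 in OsNAC5 roots, -0.21 in OsNAC6 roots, -0.25 in OsNAC9 roots and -0.64 in OsNAC10 roots. A pair with close locus numbers on chromosome 8 fell most. Os08g0509100, described as similar to a chloroplast lipoxygenase precursor, had 2.98 and 3.54 FPKM in OsNAC5 roots, 3.03 and 1.96 in OsNAC6 roots, 4.19 and 5.12 in OsNAC9 roots and 0.988 and 1.35 in OsNAC10 roots, against 14.9 and 15.5 FPKM in NT roots. No line library came near NT, OsNAC9 as the highest line held 30.6% of the NT mean, and the OsNAC10 libraries were the lowest. The log2 changes were -1.93 for OsNAC5, -2.23 for OsNAC6, -1.52 for OsNAC9 and -2.91 for OsNAC10 (SE 0.17 each, adjusted p between 1.5e-05 and 0.00067). The nearby Os08g0508800, a chloroplast lipoxygenase precursor, had 1.54 and 1.88 FPKM in OsNAC5 roots, 0.8299 and 0.5302 in OsNAC6 roots, 1.58 and 1.89 in OsNAC9 roots and 0.362 and 0.457 in OsNAC10 roots, against 6.301 and 5.95 FPKM in NT roots. The groups of lines and NT did not overlap, and OsNAC10 roots held 6.69% of the NT mean. The changes were -1.398 for OsNAC5, -2.09 for OsNAC6, -1.38 for OsNAC9 and -2.34 for OsNAC10 (SE 0.12 each, adjusted p between 8.1e-06 and 0.00022). How reads shared between near-identical copies were assigned was not stated, so the values of such nearby loci are uncertain where their sequences match.

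The other lipoxygenases moved less or in fewer lines. Os04g0447100 on chromosome 4 had 8.71 and 9.91 FPKM in OsNAC5 roots, 6.26 and 4.402 in OsNAC6 roots, 4.31 and 6.14 in OsNAC9 roots and 2.899 and 2.65 in OsNAC10 roots, against 12.7 and 12.7 FPKM in NT roots. It was lower than NT in all line libraries, least so in OsNAC5. Its log2 changes were -0.41 for OsNAC5, -1.13 for OsNAC6, -1.15 for OsNAC9 and -1.86 for OsNAC10 (SE 0.18 each, adjusted p between 0.00022 and 0.0034 for OsNAC6, OsNAC9 and OsNAC10), while the OsNAC5 change was not called, with an adjusted p of 0.24. Os03g0700700 on chromosome 3 had 22 and 24.2 FPKM in OsNAC5 roots, 21.7 and 18.9 in OsNAC6 roots, 21.6 and 26.6 in OsNAC9 roots and 16.5 and 18.1 in OsNAC10 roots, against 36.6 and 36.1 FPKM in NT roots. Again no line library reached NT. The changes were -0.63 for OsNAC5, -0.81 for OsNAC6, -0.58 for OsNAC9 and -1.03 for OsNAC10 (SE 0.12 each, adjusted p between 0.00049 and 0.013), and the OsNAC9 change was just short of 1.5 fold, a limit it passed without OsNAC9 replicate 2 (-0.72), with a pseudocount of 0.1 (-0.60) and with quantile normalization (-0.58). Its OsNAC5 call was lost without either OsNAC5 library or either NT library (adjusted p 0.051 to 0.10). Os11g0575600 on chromosome 11 had 2.83 and 3.35 FPKM in OsNAC5 roots, 4.23 and 2.74 in OsNAC6 roots, 4.28 and 5.71 in OsNAC9 roots and 1.48 and 1.34 in OsNAC10 roots, against 5.06 and 4.84 FPKM in NT roots. Only the OsNAC10 libraries stood clear below all others, and only that change was called (-1.303, SE 0.18, adjusted p 0.0014), though without OsNAC6 replicate 1 the OsNAC6 change was called as well (-0.67).

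The more abundant lipoxygenase Os03g0738600, with a description of lipoxygenase L-2, had 51.1 and 52.3 FPKM in OsNAC5 roots, 106 and 77.7 in OsNAC6 roots, 53.2 and 67.04 in OsNAC9 roots and 69.2 and 59.01 in OsNAC10 roots, against 81.2 and 71.7 FPKM in NT roots. It was not called in any line against NT, and the line and NT libraries overlapped. Os05g0304600 was the lipoxygenase for which all line libraries were above both NT libraries. It had 8.08 and 8.05 FPKM in OsNAC5 roots, 9.42 and 7.62 in OsNAC6 roots, 7.89 and 8.35 in OsNAC9 roots and 7.498 and 7.54 in OsNAC10 roots, against 7.0 and 7.08 FPKM in NT roots. The distance was small and no change was called. The remaining 3 tested lipoxygenases were at or under 1.22 FPKM in every library.

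Allene oxide synthase makes the unstable intermediate from which jasmonates are built, and 5 loci were described as this enzyme. Os03g0225900 on chromosome 3 had 2.79 and 3.52 FPKM in OsNAC5 roots, 2.79 and 1.64 in OsNAC6 roots, 3.88 and 5.02 in OsNAC9 roots and 1.501 and 1.601 in OsNAC10 roots, against 15.3 and 14.9 FPKM in NT roots. The lines lay far below NT, between 10.3% of the NT mean in OsNAC10 roots and 29.5% in OsNAC9 roots. The log2 changes were -1.96 for OsNAC5, -2.35 for OsNAC6, -1.57 for OsNAC9 and -2.66 for OsNAC10 (SE 0.18 each, adjusted p between 3.9e-05 and 0.00084). Os03g0767000, also on chromosome 3, had 15.7 and 19.5 FPKM in OsNAC5 roots, 18.7 and 13.3 in OsNAC6 roots, 12.3 and 14.7 in OsNAC9 roots and 10.8 and 12.99 in OsNAC10 roots, against 29.7 and 30.2 FPKM in NT roots. The line libraries did not reach NT here either. The changes were -0.74 for OsNAC5, -0.89 for OsNAC6, -1.097 for OsNAC9 and -1.27 for OsNAC10 (SE 0.17 each, adjusted p between 0.0013 and 0.037). Its OsNAC5 call was lost without either library of OsNAC5, OsNAC10 or NT (adjusted p 0.057 to 0.20), and its OsNAC6 call without NT replicate 2 (adjusted p 0.055).

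Os02g0218700 and Os02g0218800, close together on chromosome 2, both similar to allene oxide synthase, differed from this pattern. Os02g0218700 had 3.61 and 4.24 FPKM in OsNAC5 roots, 8.76 and 5.77 in OsNAC6 roots, 5.07 and 7.61 in OsNAC9 roots and 10.7 and 13.1 in OsNAC10 roots, against 9.299 and 9.29 FPKM in NT roots. OsNAC5 roots were the lowest and OsNAC10 roots the highest, above NT in both libraries. Only the OsNAC5 change was called (-1.07, SE 0.21, adjusted p 0.019), and leaving out any library of OsNAC5 or NT lost it (adjusted p 0.076 to 0.12). Os02g0218800 was at 20.3 to 30.7 FPKM in the line libraries and 30.8 and 33.3 FPKM in NT, all below NT but with no change called. The fifth, Os03g0766900, was under 1 FPKM throughout, at 0.492 to 0.740 FPKM in the line libraries and 0.420 and 0.398 FPKM in NT.

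The next steps of synthesis were not called in any line. Allene oxide cyclase (Os03g0438100, chromosome 3) had 98.4 and 81.4 FPKM in OsNAC5 roots, 76.2 and 75.1 in OsNAC6 roots, 69.6 and 83.9 in OsNAC9 roots and 84.3 and 77.2 in OsNAC10 roots, against 102 and 99.3 FPKM in NT roots. All line libraries were a little lower than NT. The log2 changes were -0.16 for OsNAC5, -0.404 for OsNAC6, -0.39 for OsNAC9 and -0.31 for OsNAC10 (SE 0.11 each, adjusted p between 0.034 and 0.49), short of 1.5 fold in every line. The 12-oxophytodienoate reductase locus Os08g0459600 on chromosome 8, described as similar to reductase 3 of tomato, had 62.7 and 62.9 FPKM in OsNAC5 roots, 64.4 and 55.9 in OsNAC6 roots, 59.01 and 60.9 in OsNAC9 roots and 53.3 and 57.7 in OsNAC10 roots, against 66.6 and 68.6 FPKM in NT roots. Its line libraries also lay below NT, by at most 0.28 (log2, OsNAC10, SE 0.08, adjusted p 0.036), and no change was called. Counted over the 6 allene oxide loci, 3 were called lower in OsNAC5 roots (2.78% of all loci). In each of OsNAC6 (7.07% of all loci), OsNAC9 (4.91%) and OsNAC10 roots (9.86%), 2 were called lower. The class median was -0.45 in OsNAC5 roots, -0.47 in OsNAC6 roots, -0.47 in OsNAC9 roots and -0.38 in OsNAC10 roots.

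Conjugation of jasmonate was represented by Os05g0586200 on chromosome 5, a GH3 family locus whose description names jasmonate signalling. It had 20.1 and 18.4 FPKM in OsNAC5 roots, 16.3 and 17.6 in OsNAC6 roots, 18.8 and 17.7 in OsNAC9 roots and 18.4 and 18.6 in OsNAC10 roots, against 28.7 and 30.3 FPKM in NT roots. The line libraries lay close together, well below NT. The log2 changes were -0.59 for OsNAC5, -0.76 for OsNAC6, -0.66 for OsNAC9 and -0.64 for OsNAC10 (SE 0.08 each, adjusted p between 0.00049 and 0.0033), a call in every line. With each library centred on its median the OsNAC10 change was -0.56, and without OsNAC5 replicate 2 or NT replicate 2 the OsNAC5 change was -0.53 or -0.55, under 1.5 fold. The other 4 tested loci with jasmonate in their description were not called. Among them the abundant Os10g0132300, similar to a jasmonate-induced protein, was at 207 to 263 FPKM in the line libraries and 215 and 207 FPKM in NT. Os03g0119966, itself a NAC-domain protein described as a regulator of jasmonate signalling, was at 2.01 to 3.26 FPKM in the line libraries and 2.27 and 2.35 FPKM in NT.

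**Figure D2:**
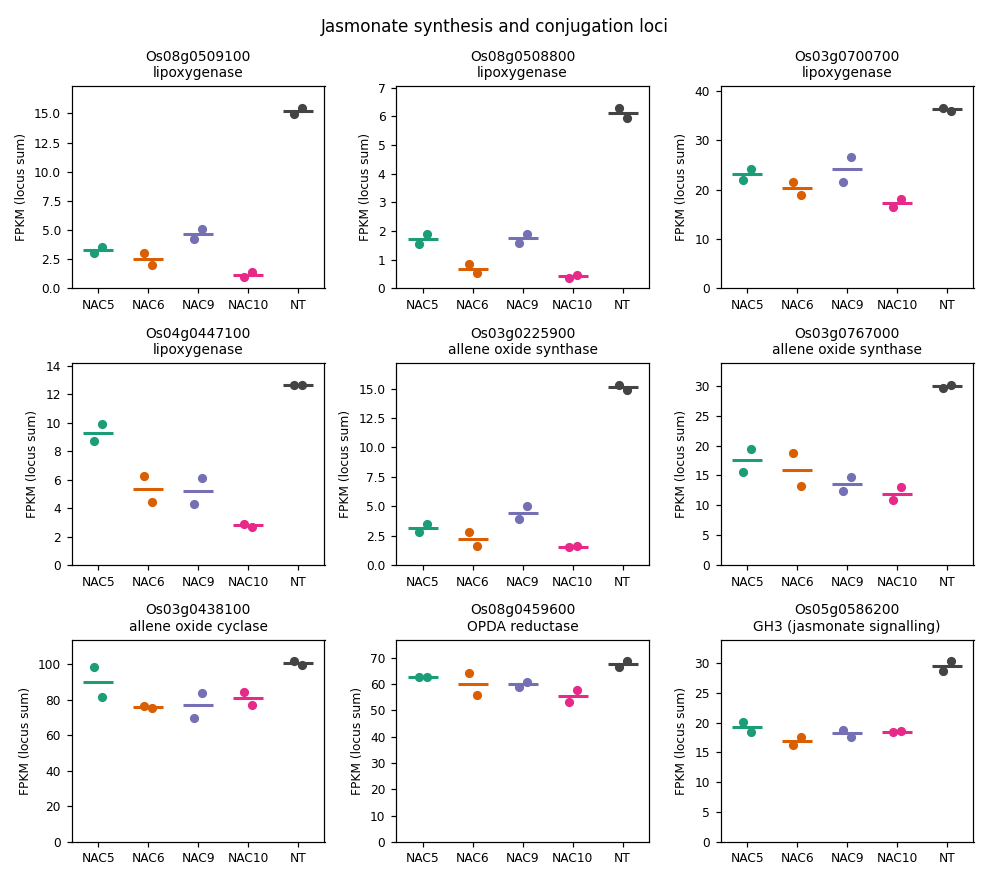
FPKM in each library (points) and the group mean (bars) for 9 lipoxygenase, allene oxide enzyme, reductase and GH3 loci, with OsNAC5, OsNAC6, OsNAC9 and OsNAC10 roots left of NT. The chloroplast lipoxygenases Os08g0509100 and Os08g0508800 and the synthase Os03g0225900 sit far below NT in every line library, while allene oxide cyclase Os03g0438100 and the reductase Os08g0459600 lie just under NT.

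Among 17 loci with a Tify domain or ZIM motif, the family that includes the JAZ repressors, 15 were tested. Of these 4 were called lower in OsNAC5 roots (2.78% of all loci), 10 in OsNAC6 roots (7.07%), 6 in OsNAC9 roots (4.91%) and 12 in OsNAC10 roots (9.86%). For the mean of the lines 9 were called lower (5.34% of all loci). None was called higher by limma in any line, and at an unadjusted p under 0.05 the count higher was 0 in each as well. The median log2 change of the 15 was -0.43 in OsNAC5 roots, -0.73 in OsNAC6 roots, -0.56 in OsNAC9 roots and -1.08 in OsNAC10 roots. NT had the highest group mean for 13 of the 15, and OsNAC10 the lowest for 11. The like shares over all loci were not computed, and OsNAC10 had the most loci called lower. Summed over the 17 loci, the level was 756 ± 32.4 FPKM in OsNAC5 roots, 633 ± 35.1 in OsNAC6 roots, 683 ± 10.1 in OsNAC9 roots and 516 ± 25.3 in OsNAC10 roots, against 965 ± 18.4 FPKM in NT roots (SD, n = 2 each), with no overlap between any line and NT.

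Chromosome 3 carries 3 Tify loci with close locus numbers, all of which were lowest in OsNAC10 roots. Os03g0180800, similar to a ZIM motif family protein, had 9.93 and 9.86 FPKM in OsNAC5 roots, 4.58 and 4.69 in OsNAC6 roots, 5.11 and 5.51 in OsNAC9 roots and 2.78 and 2.67 in OsNAC10 roots, against 14.2 and 16.5 FPKM in NT roots. The lines did not overlap NT, and OsNAC5 lay between NT and the other lines. Its log2 changes were -0.58 for OsNAC5, -1.53 for OsNAC6, -1.37 for OsNAC9 and -2.13 for OsNAC10 (SE 0.10 each, adjusted p between 5.7e-06 and 0.011), with the OsNAC5 change just short of 1.5 fold. That change passed the limit without NT replicate 1 (-0.68), with a pseudocount of 0.1 (-0.62) and with quantile normalization (-0.59). Os03g0180900 had 26.1 and 29.9 FPKM in OsNAC5 roots, 28.8 and 30.5 in OsNAC6 roots, 30.9 and 32.5 in OsNAC9 roots and 5.41 and 8.099 in OsNAC10 roots, against 45.7 and 45.6 FPKM in NT roots. OsNAC5, OsNAC6 and OsNAC9 lay close together under NT, and OsNAC10 stood far below them at 14.8% of the NT mean. The changes were -0.69 for OsNAC5, -0.61 for OsNAC6, -0.52 for OsNAC9 and -2.61 for OsNAC10 (SE 0.15 each, adjusted p between 1.3e-05 and 0.046), called in all but OsNAC9. Os03g0181100 had 50.4 and 58.7 FPKM in OsNAC5 roots, 28.3 and 22.8 in OsNAC6 roots, 18.7 and 23.3 in OsNAC9 roots and 12.7 and 15.9 in OsNAC10 roots, against 72.4 and 75.4 FPKM in NT roots. Here OsNAC5 was nearest NT and the other 3 lines were far lower. The changes were -0.44 for OsNAC5, -1.51 for OsNAC6, -1.78 for OsNAC9 and -2.302 for OsNAC10 (SE 0.15 each, adjusted p between 2.9e-05 and 0.00035 for OsNAC6, OsNAC9 and OsNAC10), and the OsNAC5 change was not called (adjusted p 0.14). For Os03g0180900 the OsNAC5 call was lost without either OsNAC5 or either NT library (adjusted p 0.081 to 0.16), and the OsNAC6 call without OsNAC6 replicate 1 or either NT library (0.065 to 0.10). The next member in number, Os03g0181600, is described as a GATA factor of ZIM-like type. It was at 2.68 to 4.49 FPKM in the line libraries and 4.81 and 4.89 FPKM in NT, and it was not called.

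On chromosome 10, Os10g0392400 had 19.98 and 24.5 FPKM in OsNAC5 roots, 14.3 and 16.8 in OsNAC6 roots, 16.3 and 16.2 in OsNAC9 roots and 7.64 and 8.74 in OsNAC10 roots, against 43.5 and 44.9 FPKM in NT roots. All line means were at or below 50.3% of the NT mean, and OsNAC10 was again the lowest. Its log2 changes were -0.97 for OsNAC5, -1.46 for OsNAC6, -1.39 for OsNAC9 and -2.301 for OsNAC10 (SE 0.12 each, adjusted p between 7.6e-06 and 0.0015). The nearby Os10g0391400 had 7.43 and 11.2 FPKM in OsNAC5 roots, 5.16 and 4.76 in OsNAC6 roots, 2.504 and 2.88 in OsNAC9 roots and 2.29 and 2.65 in OsNAC10 roots, against 15.2 and 14.5 FPKM in NT roots. OsNAC9 and OsNAC10 overlapped each other at the bottom. The changes were -0.64 for OsNAC5, -1.41 for OsNAC6, -2.101 for OsNAC9 and -2.19 for OsNAC10 (SE 0.17 each, adjusted p between 6.8e-05 and 0.00081 for OsNAC6, OsNAC9 and OsNAC10), while that of OsNAC5 was not called (adjusted p 0.06). The OsNAC5 change was called without OsNAC5 replicate 2 (-0.91, adjusted p 0.016). It was also called by limma with median centring, quantile normalization, library weights or a filter at a mean of 1 FPKM, with adjusted p between 0.017 and 0.049. The third locus of this stretch, Os10g0391801, was at 0 in every library.

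Os04g0395800 and Os03g0402800 were called lower in all 4 lines. Os04g0395800, on chromosome 4, had 1.22 and 1.301 FPKM in OsNAC5 roots, 1.07 and 1.07 in OsNAC6 roots, 1.04 and 1.34 in OsNAC9 roots and 0.803 and 0.626 in OsNAC10 roots, against 3.51 and 3.51 FPKM in NT roots. No line library came near NT. The log2 changes were -0.997 for OsNAC5, -1.12 for OsNAC6, -1.05 for OsNAC9 and -1.397 for OsNAC10 (SE 0.10 each, adjusted p between 4.3e-05 and 0.00047). Os03g0402800, one of the more abundant Tify loci, had 74.3 and 74.98 FPKM in OsNAC5 roots, 51.03 and 54.1 in OsNAC6 roots, 64.2 and 61.2 in OsNAC9 roots and 41.4 and 44.3 in OsNAC10 roots, against 112 and 114 FPKM in NT roots. The order was OsNAC5, OsNAC9, OsNAC6 and OsNAC10 from high to low, with no overlap among them. The changes were -0.59 for OsNAC5, -1.09 for OsNAC6, -0.84 for OsNAC9 and -1.38 for OsNAC10 (SE 0.07 each, adjusted p between 7.2e-06 and 0.0013). Its OsNAC5 change was -0.58 without OsNAC5 replicate 1 and -0.57 without NT replicate 2, under 1.5 fold.

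Further Tify loci were lower by smaller steps. Os07g0615200, on chromosome 7, had 216 and 236 FPKM in OsNAC5 roots, 187 and 174 in OsNAC6 roots, 202 and 214 in OsNAC9 roots and 134 and 152 in OsNAC10 roots, against 270.3 and 275 FPKM in NT roots. The lines lay below NT throughout, with OsNAC10 lowest. The changes were -0.27 for OsNAC5, -0.59 for OsNAC6, -0.39 for OsNAC9 and -0.93 for OsNAC10 (SE 0.09 each, adjusted p between 0.00022 and 0.12), called in OsNAC6 and OsNAC10, and the OsNAC6 change was -0.54 without OsNAC6 replicate 2 and -0.58 without NT replicate 2, under 1.5 fold. Os09g0401300, on chromosome 9, had 59.5 and 57.8 FPKM in OsNAC5 roots, 44.02 and 46.5 in OsNAC6 roots, 53.8 and 53.1 in OsNAC9 roots and 46.6 and 46.9 in OsNAC10 roots, against 76.9 and 81.8 FPKM in NT roots. OsNAC6 and OsNAC10 lay next to each other at the lowest level. The changes were -0.43 for OsNAC5, -0.796 for OsNAC6, -0.56 for OsNAC9 and -0.75 for OsNAC10 (SE 0.07 each, adjusted p between 0.00013 and 0.006), again called in those 2 lines, and the OsNAC9 change was -0.60 and called without NT replicate 1. Os08g0428400, on chromosome 8, had 24.8 and 26.5 FPKM in OsNAC5 roots, 18.7 and 21.9 in OsNAC6 roots, 25.2 and 25.3 in OsNAC9 roots and 24.5 and 19.7 in OsNAC10 roots, against 34.9 and 33.8 FPKM in NT roots. NT was clear of all lines, which partly overlapped each other. The changes were -0.41 for OsNAC5, -0.73 for OsNAC6, -0.43 for OsNAC9 and -0.62 for OsNAC10 (SE 0.11 each, adjusted p between 0.0028 and 0.075), also called in OsNAC6 and OsNAC10. Without OsNAC10 replicate 2 the OsNAC10 change was -0.47, under 1.5 fold.

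Os09g0439200, on chromosome 9, was called lower in OsNAC10 roots alone. It had 6.34 and 6.38 FPKM in OsNAC5 roots, 8.87 and 7.65 in OsNAC6 roots, 8.29 and 8.91 in OsNAC9 roots and 3.16 and 2.83 in OsNAC10 roots, against 7.34 and 7.53 FPKM in NT roots. The OsNAC10 libraries lay far under the rest, OsNAC5 a little under NT, and OsNAC6 and OsNAC9 above NT. The OsNAC10 change was -1.08 (log2, SE 0.11, adjusted p 0.00024), and the others were between -0.196 and 0.19 and not called. Os04g0653000, on chromosome 4, the most abundant Tify locus by its mean over all libraries, had 232 and 237 FPKM in OsNAC5 roots, 263 and 219 in OsNAC6 roots, 244 and 242 in OsNAC9 roots and 212 and 226 in OsNAC10 roots, against 251 and 259 FPKM in NT roots. Its values overlapped between lines and NT, and its changes of -0.07 to -0.22 were not called. Os07g0153000, on chromosome 7, was at a low level, with 0.497 and 0.689 FPKM in OsNAC5 roots, 0.6101 and 0.0934 in OsNAC6 roots, 0.208 and 0.315 in OsNAC9 roots and 0.163 and 0.196 in OsNAC10 roots, against 0.602 and 1.68 FPKM in NT roots. The NT libraries differed widely, and the OsNAC10 call (log2 -0.81, SE 0.24, adjusted p 0.035) was lost without either library of OsNAC5 (0.052) or OsNAC10 (0.13), or without NT replicate 2 (0.20). Without NT replicate 1, OsNAC6 and OsNAC9 were called as well (-1.01 in OsNAC6 and -1.09 in OsNAC9), and without an OsNAC6 library so were OsNAC9 (-0.72, either library) and OsNAC6 (-0.92, replicate 1).

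**Figure D3:**
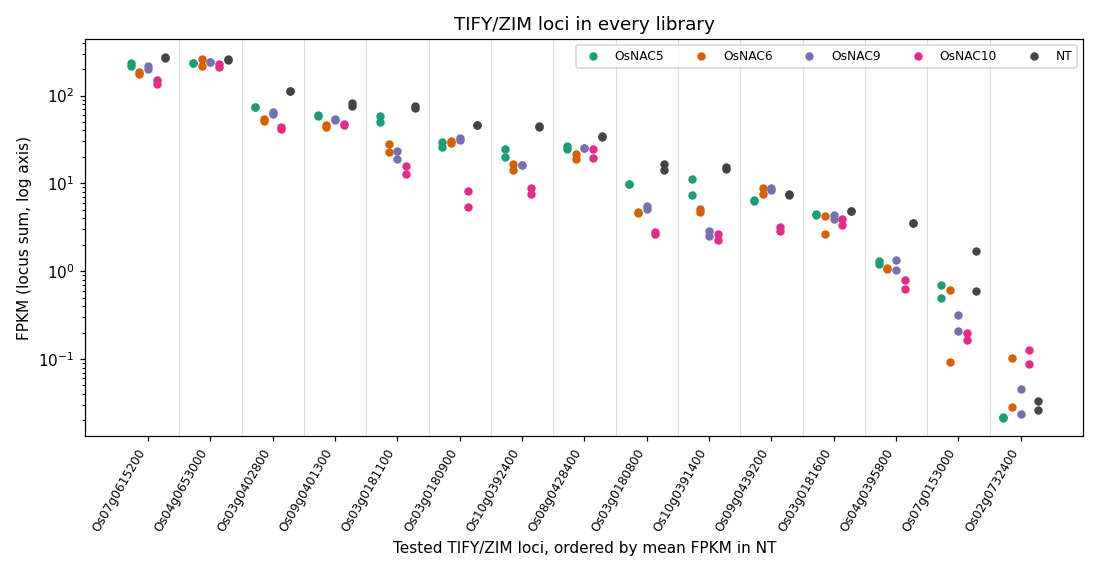
FPKM in each library, on a log axis, of the 15 tested Tify or ZIM loci, ordered by their NT mean; points are libraries, with OsNAC5, OsNAC6, OsNAC9 and OsNAC10 roots left of NT within each locus. NT points lie above the line points at most loci, and OsNAC10 points are lowest at 11 of the 15 by their mean.

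Of 4 loci whose description names only the lipoxygenase LH2 domain, the N-terminal fold of lipoxygenases, 3 were tested. They moved in opposite directions. Os10g0361000, on chromosome 10, had 5.72 and 5.55 FPKM in OsNAC5 roots, 18.4 and 10.2 in OsNAC6 roots, 13.2 and 17.8 in OsNAC9 roots and 4.76 and 4.78 in OsNAC10 roots, against 34.9 and 40.9 FPKM in NT roots. OsNAC5 and OsNAC10 were the lowest, and OsNAC6 and OsNAC9 lay between them and NT. The log2 changes were -2.55 for OsNAC5, -1.39 for OsNAC6, -1.24 for OsNAC9 and -2.75 for OsNAC10 (SE 0.24 each, adjusted p between 0.00013 and 0.0091), and the OsNAC9 call was lost without OsNAC9 replicate 1 (adjusted p 0.059) or NT replicate 2 (0.077). Os02g0753300, on chromosome 2, had 168 and 206 FPKM in OsNAC5 roots, 348 and 261 in OsNAC6 roots, 184 and 251 in OsNAC9 roots and 234 and 242 in OsNAC10 roots, against 154 and 148 FPKM in NT roots. Every line library was above NT, most so in OsNAC6. It was called in OsNAC6 (0.996, SE 0.18, adjusted p 0.0054) and in OsNAC10 (0.65, adjusted p 0.026), and was the only member called higher against NT. Its OsNAC10 call was lost without either library of OsNAC10 or NT, and its call for the mean of the lines without either NT library. With quantile normalization the change was 0.497 in OsNAC10 and 0.50 for the mean of the lines, both under 1.5 fold. The mean change was also under 1.5 fold without OsNAC5 replicate 2 (0.578), OsNAC6 replicate 1 (0.563) or OsNAC9 replicate 2 (0.559). Without OsNAC9 replicate 1 the OsNAC9 change was 0.73. Os10g0361900 was at 0.239 and 0.214 FPKM in OsNAC10 roots, against 0.829 and 1.16 FPKM in NT roots, and was called lower in that line only (log2 -0.70).

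The lines also differed among themselves. Without NT in the comparison, 17 of the 45 members differed among the 4 lines by at least 1.5 fold at an adjusted p under 0.05 (11.3% of all loci): 8 of 15 Tify loci, 5 of 10 lipoxygenases, 2 of 6 allene oxide loci and 2 of 3 LH2 domain loci. For 16 of the 17 the largest difference between 2 lines involved OsNAC10, and the like share over all loci was not computed. Over all loci tested, 843 to 1718 were called lower in OsNAC10 than in each other line, and 402 to 711 higher. In each pair of lines without OsNAC10, 231 to 523 loci were called per direction. Compared with OsNAC5, OsNAC10 was lower for 13 members (5.74% of all loci) and higher for 1 (2% of all loci), which was Os02g0218700. Compared with OsNAC9 it was lower for 11 (5.47% of all loci) and higher for 1 (2.38% of all loci), again Os02g0218700. Compared with OsNAC6 it was lower for 9 (2.82% of all loci), and by limma 0 were higher (1.34% of all loci; 2 members at an unadjusted p under 0.05). Within the Tify class OsNAC10 was lower than OsNAC5 for 8, than OsNAC6 for 6 and than OsNAC9 for 4 of the 15 loci. The largest of these was Os03g0180900, at -1.92 against OsNAC5, -2.004 against OsNAC6 and -2.097 against OsNAC9 on the log2 scale.

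Other parts of the pathway were read from a list of 11 loci that are not members, all of which were tested. Of these 5 were called lower in OsNAC5 roots (2.78% of all loci), 5 in OsNAC6 roots (7.07% of all loci), 5 in OsNAC9 roots (4.91% of all loci) and 4 in OsNAC10 roots (9.86% of all loci). The list was chosen with earlier results of these data known. None was called higher by limma, and at an unadjusted p under 0.05 only 1 was higher, in OsNAC10. No receptor locus was called. Os01g0853400, described as Coronatine-insensitive 1, the COI1 F-box protein, had 38.7 and 37.03 FPKM in OsNAC5 roots, 34.5 and 36.6 in OsNAC6 roots, 38.5 and 36.9 in OsNAC9 roots and 38.5 and 39.7 in OsNAC10 roots, against 40.3 and 40.8 FPKM in NT roots. Its similar locus Os05g0449500 had 34.4 to 37.8 FPKM in the line libraries and 38.7 and 40.2 FPKM in NT, and Os03g0265500 had 1.09 to 2.32 FPKM in the line libraries and 1.46 and 1.22 FPKM in NT, with no change called in either. Os10g0575000, similar to the bHLH factor MYC7E, had 2.101 and 1.77 FPKM in OsNAC5 roots, 1.52 and 1.85 in OsNAC6 roots, 1.82 and 1.82 in OsNAC9 roots and 1.99 and 2.102 in OsNAC10 roots, against 2.503 and 2.72 FPKM in NT roots. It lay below NT in every line library but by less than 1.5 fold.

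The other bHLH loci on the list were called lower in every line. Os04g0301500, described only as a helix-loop-helix protein, had 8.05 and 8.93 FPKM in OsNAC5 roots, 4.34 and 2.76 in OsNAC6 roots, 1.61 and 1.54 in OsNAC9 roots and 0.851 and 0.864 in OsNAC10 roots, against 20.9 and 21.7 FPKM in NT roots. The groups were well separated, in the order OsNAC5, OsNAC6, OsNAC9 and OsNAC10 from high to low. Its log2 changes were -1.23 for OsNAC5, -2.31 for OsNAC6, -3.11 for OsNAC9 and -3.58 for OsNAC10 (SE 0.16 each, adjusted p between 3.5e-06 and 0.002). Os03g0741100, also bHLH, had 32.1 and 30.9 FPKM in OsNAC5 roots, 18.9 and 16.6 in OsNAC6 roots, 13.8 and 15.8 in OsNAC9 roots and 9.45 and 11.2 in OsNAC10 roots, against 47.4 and 49.9 FPKM in NT roots. The order of the groups was the same, with changes of -0.61 for OsNAC5, -1.41 for OsNAC6, -1.65 for OsNAC9 and -2.14 for OsNAC10 (SE 0.11 each, adjusted p between 7.2e-06 and 0.011). Os11g0684000, similar to MYB21, had 6.27 and 6.67 FPKM in OsNAC5 roots, 7.91 and 7.05 in OsNAC6 roots, 6.64 and 6.597 in OsNAC9 roots and 10.5 and 11.1 in OsNAC10 roots, against 13.1 and 13.4 FPKM in NT roots. OsNAC10 was here the line nearest NT, and it was the line without a call (-0.27, SE 0.09, adjusted p 0.057), while the changes were -0.93 for OsNAC5, -0.75 for OsNAC6 and -0.905 for OsNAC9.

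PBZ1 is a pathogenesis-related protein of rice named for its induction by probenazole, and such genes respond to jasmonate among other signals. PBZ1 (Os12g0555500, chromosome 12) had 13.5 and 13.6 FPKM in OsNAC5 roots, 17.9 and 20.4 in OsNAC6 roots, 54.2 and 63.9 in OsNAC9 roots and 18.6 and 20.6 in OsNAC10 roots, against 260.3 and 279.5 FPKM in NT roots. The 2 NT libraries were several times above every line library, and OsNAC9 was the highest line. Its log2 changes were -4.22 for OsNAC5, -3.75 for OsNAC6, -2.18 for OsNAC9 and -3.72 for OsNAC10 (SE 0.10 each, adjusted p between 9.6e-08 and 5.6e-06). Os12g0555000, similar to PBZ1, had 125 and 139 FPKM in OsNAC5 roots, 104 and 96.9 in OsNAC6 roots, 139 and 154 in OsNAC9 roots and 63.3 and 70.9 in OsNAC10 roots, against 303 and 314 FPKM in NT roots. OsNAC10 was the lowest line, with changes of -1.22 for OsNAC5, -1.61 for OsNAC6, -1.07 for OsNAC9 and -2.19 for OsNAC10 (SE 0.09 each, adjusted p between 3.1e-06 and 0.00017). The GH3 family locus Os01g0221100 and the lipase Os01g0900400 were not called against NT in any line.

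**Figure D4:**
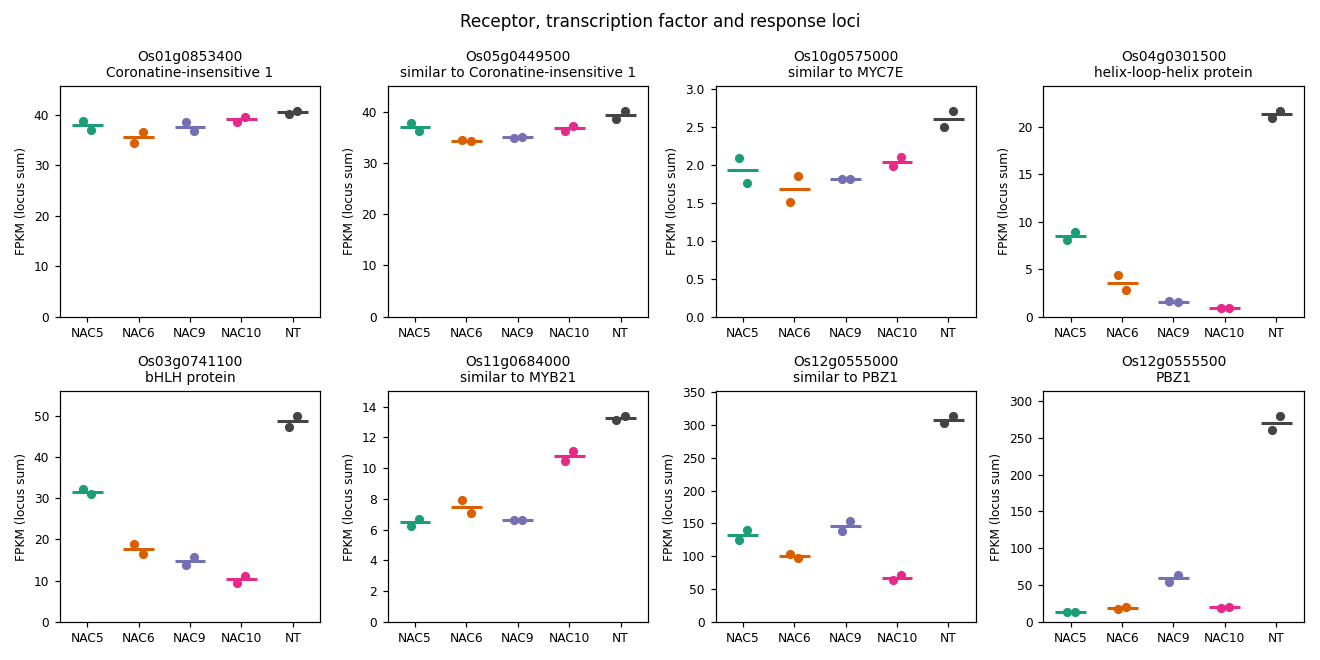
FPKM in each library (points) and the group mean (bars) for 8 listed receptor, transcription factor and response loci, with OsNAC5, OsNAC6, OsNAC9 and OsNAC10 roots left of NT. The Coronatine-insensitive 1 loci lie within a narrow range just under NT, and Os04g0301500, Os03g0741100, Os12g0555000 and Os12g0555500 lie below NT in every line library, by amounts that differ between lines.

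The 5 tested potassium channel loci, members by spelling alone, were not called by limma in any line. At an unadjusted p under 0.05, 2 were higher in OsNAC6, 1 in OsNAC9 and 2 in OsNAC10 roots. Their median change was 0.07 in OsNAC5 roots, 0.14 in OsNAC6 roots, 0.05 in OsNAC9 roots and 0.17 in OsNAC10 roots. Leaving them out, 12 of the other 40 tested members were called lower in OsNAC5 roots (2.78% of all loci) and 18 in OsNAC6 roots (7.07%). In OsNAC9 roots 13 were called lower (4.91% of all loci), and in OsNAC10 roots 22 (9.86%). The 13 members that were not tested were at 0 in at least 1 library. Of these 6 were at 0 in every library, and the other 7 did not exceed 0.376 FPKM in any.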

How the data were processed

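RNA-Seq libraries of rice roots, 2 for each of 4 transgenic groups and NT, were deposited as FPKM values per transcript, which the authors made from reads cleared of adaptors, contaminants, PCR duplicates and low-quality bases and mapped with TopHat to IRGSP version 1.0 with RAP-DB genes. The program behind the FPKM values and the TopHat version were not given in the sources used here, nor whether the strand of the library was used. A second deposited copy differed in 0 values, and 0 sample columns were left unused. Groups and replicate numbers came from the sample titles.

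FPKM of the 41635 transcripts were summed per locus (37869), so a member's sum includes its transcripts with other descriptions. Loci above 0 in all 10 libraries (29915) were fitted as log2(FPKM + 1) in limma 3.58.1 (R 4.3.3), with all groups in 1 model, an intensity trend and two-sided tests, and p-values were adjusted over all loci tested. The model was tested on simulated data. With 2 libraries against 2, exact tests of single values cannot reach 0.05 and were not used. Depth was read as the most frequent ratio of values under 0.15 FPKM, and no read counts were used. Tables and figures were made in Python 3.11.15.

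Values in every library were given for members called in at least 1 line with a mean of at least 1 FPKM, largest change first, and for listed synthesis, GH3 and Tify loci whether called or not. Other members and loci are given by their ranges, or were chosen after their values were seen. Members, lists and classes were chosen with earlier results of these data known. Alternatives were a pseudocount of 0.1, other filters, median centring, quantile normalization, a replicate block, library weights, no trend, transcripts in place of loci, fits of a line with NT alone, other call thresholds and leaving out each library.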

Additional observations from a re-analysis of the deposited data

Results flagged for a closer look

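Each locus here differed among the 4 lines at an adjusted p under 0.05 in limma's moderated F test, with a range of at least 1.5 fold. The value is the largest log2 difference between 2 lines, on the log2(FPKM + 1) scale.

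For these Tify loci OsNAC10 was lower than OsNAC5: Os03g0180800 (-1.55), Os03g0181100 (-1.87), Os03g0402800 (-0.79), Os07g0615200 (-0.66), Os10g0391400 (-1.55) and Os10g0392400 (-1.33). OsNAC10 was lower than OsNAC9 at Os03g0180900 (-2.10) and Os09g0439200 (-1.26). The adjusted p of the pair lay between 7.1e-05 and 0.0026 for these 8 loci.

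Lipoxygenase differences were -1.45 between OsNAC10 and OsNAC5 at Os04g0447100, and between OsNAC10 and OsNAC9 they were -0.96 at Os08g0508800, -1.38 at Os08g0509100 and -1.30 at Os11g0575600. At Os03g0738600 OsNAC6 was higher than OsNAC5 (0.80, adjusted p 0.031). Allene oxide synthase Os03g0225900 was lower in OsNAC10 than in OsNAC9 (-1.09), and Os02g0218700 was higher in OsNAC10 than in OsNAC5 (1.39). The LH2 domain loci Os10g0361000 (-1.50) and Os10g0361900 (-0.61) were lower in OsNAC10 than in OsNAC9.

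Among the listed pathway loci, OsNAC10 was lower than OsNAC5 at the bHLH loci Os04g0301500 (-2.35) and Os03g0741100 (-1.53), and lower than OsNAC9 at the GH3 locus Os01g0221100 (-0.69) and at Os12g0555000 (-1.12). It was higher than OsNAC5 at the MYB21-like Os11g0684000 (0.66). PBZ1 (Os12g0555500) was higher in OsNAC9 than in OsNAC5 (2.04, adjusted p 1.9e-05).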

How the results depend on the processing

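The number of members called was 12 in OsNAC5, 19 in OsNAC6, 13 in OsNAC9, 23 in OsNAC10, 18 for the mean of the lines and 17 among the lines. Shares of all loci for these calls are given above. At an adjusted p under 0.05 and at least 2 fold, it was 5 in OsNAC5 (1.98% of all loci, either direction), 11 in OsNAC6 (3.58%) and 11 for the mean of the lines (2.28%). Leaving out 1 library gave 6 (without NT replicate 2) to 12 in OsNAC5, with 7 without OsNAC5 replicate 1. Under the other alternatives these counts stayed within 1.5 times, and leaving out the potassium channel loci, chosen after seeing the data, did not move them. Correlations of replicate differences between groups lay between -0.563 (OsNAC6 with OsNAC9) and 0.367 (OsNAC5 with OsNAC9). Those of OsNAC6 with the other groups were all negative. Replicate differences were thus partly shared between some groups, with opposite sign in OsNAC6, and what lay behind them was not tested. A block on the replicate number cannot take up a shift of opposite sign. With a replicate block the counts were 11 in OsNAC5, 19 in OsNAC6, 13 in OsNAC9, 23 in OsNAC10, 17 for the mean and 16 among the lines. The share of all loci called was not computed for the block or for the fits that leave out 1 library. Under the block Os03g0767000 was not called in OsNAC5 (adjusted p 0.062), nor Os07g0153000 for the mean of the lines (adjusted p 0.054), and no other named member lost or gained a call against NT. Of 2439 alternative values for the named members, 2343 kept their side of the threshold, 70 fell short of it and 26 newly passed it. Among values called in the main or the alternative fit, 0 changed sign. Sign changes of values called in neither were not counted. With median centring, the OsNAC6 calls of Os03g0180900 and Os07g0615200 and the OsNAC10 calls of Os05g0586200 and Os08g0428400 fell short of 1.5 fold. With no filter, the adjusted p exceeded 0.05 for Os02g0218700, Os03g0180900 and Os03g0767000 in OsNAC5, Os03g0180900 in OsNAC6, and Os02g0753300 and Os07g0153000 in OsNAC10. For Os07g0153000 in the mean of the lines, limma's adjusted p was 0.0994 with no filter and 0.0515 with a pseudocount of 0.1. Without counts, the precision of low FPKM values is unknown.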
